A study of Saccharomyces cerevisiae with 32 samples.

Results

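The genes described here are 33 budding yeast (Saccharomyces cerevisiae) genes of the general environmental stress response, chosen because they are known as genes that the stress activators Msn2 and Msn4 turn on. Each of the 33 had 1 RNA spot, out of 5579 named spots on the gene array. For 31 of the 33 an intergenic spot bordering the 5' end was found on the intergenic array, which carries 7047 regions. These amount to 32 regions, because SIP18 and PAI3 share 1 region, and YGP1 and NCE102 have 2 regions each. DDR48 and UIP4 had no region. A total of 31 regions, of 30 genes, had enough values to be tested, and the region of FMP16 did not.

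Msn2 and Msn4 are zinc finger proteins that enter the nucleus when cells meet heat, salt, oxidants or starvation, and bind short stress response elements in promoters. The genes they turn on encode detoxifying enzymes, water-loving protective proteins, vacuolar proteases and membrane proteins, and many of these promoters carry a TATA box. Transcription then needs the TATA-binding protein TBP, which can be brought by TFIID, of which TAF1 is a subunit, or by the SAGA complex, in which Spt3 contacts TBP. Mot1 uses ATP to strip TBP off DNA. Bdf1 associates with TFIID and reads acetylated histones through its bromodomains.

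Cells were grown in rich medium at 25 °C, diluted with an equal volume of hot medium to reach 37 °C for 15 min (heat shocked) or of 25 °C medium for the same time (mock treated). For chromatin immunoprecipitation they were brought back to 25 °C while being fixed with 1% formaldehyde for 2 h, so the heat shocked chromatin was fixed as it cooled. Strains with an HA-tagged TBP, TAF1, Spt3, Mot1 or Bdf1, and a strain labelled Null, were each measured on 4 arrays that set heat shocked against mock treated immunoprecipitated DNA. A further 4 arrays set HA-TAF1 input DNA against HA-Spt3 input DNA, both from mock treated cells. RNA came from the BY4741 strain labelled Null, with 2 arrays of heat shocked against mock treated cDNA and 2 arrays of mock treated against mock treated cDNA. Nothing in the labels says whether arrays of a group came from separate cultures, so the p-values measure the spread between arrays, which may be technical.

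Every value below is a log2 ratio of heat shocked to mock treated, after subtracting the median of the array. A positive value therefore means higher than the typical region or spot, not higher in absolute terms. Without that subtraction the middle of the 6392 regions would sit at -1.16 for Mot1 and -0.91 for Null, and between -0.20 (Bdf1) and 0.18 (TBP) for the other 4 factors, and 15 of the 17 Mot1 values described as higher below would be below 0. The direction of the deposited ratios is likely but not stated. RNA was read as channel 2 over channel 1, because chaperone genes, which heat induces, then rise. ChIP was read as channel 1 over channel 2, because TBP then rises at their promoters, and under the opposite reading every ChIP value changes sign. A call means a Benjamini-Hochberg adjusted p under 0.05 over all regions or spots tested. The arrays differed in spread: the median absolute deviation over all regions was 0.528 on Null array A and 0.407 on Null array B, against 0.170 and 0.153 on Null arrays C and D. Ratios hold no levels, so the marker genes that define the strain could not be checked.

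The RNA of nearly the whole group rose. Of the 33 genes, 31 were called and each of these was higher in heat shocked cells, where 16.9% of the 6920 tested spots were called higher and 17.6% lower. The median over the 33 genes was 2.87, against 0.013 over all spots. The effects ran from 0.011 for MRK1 to 6.25 for FMP45. In bulk RNA, more responding cells and more RNA per cell cannot be told apart. Leaving out 1 heat array lost the calls of YPR1 and MOH1 (adjusted p from 0.112 to 0.205), and leaving out heat array B also lost that of PAI3 (1.49, adjusted p 0.0860). MOH1 was also lost without mock array A (adjusted p 0.0899).

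**Figure D1:**
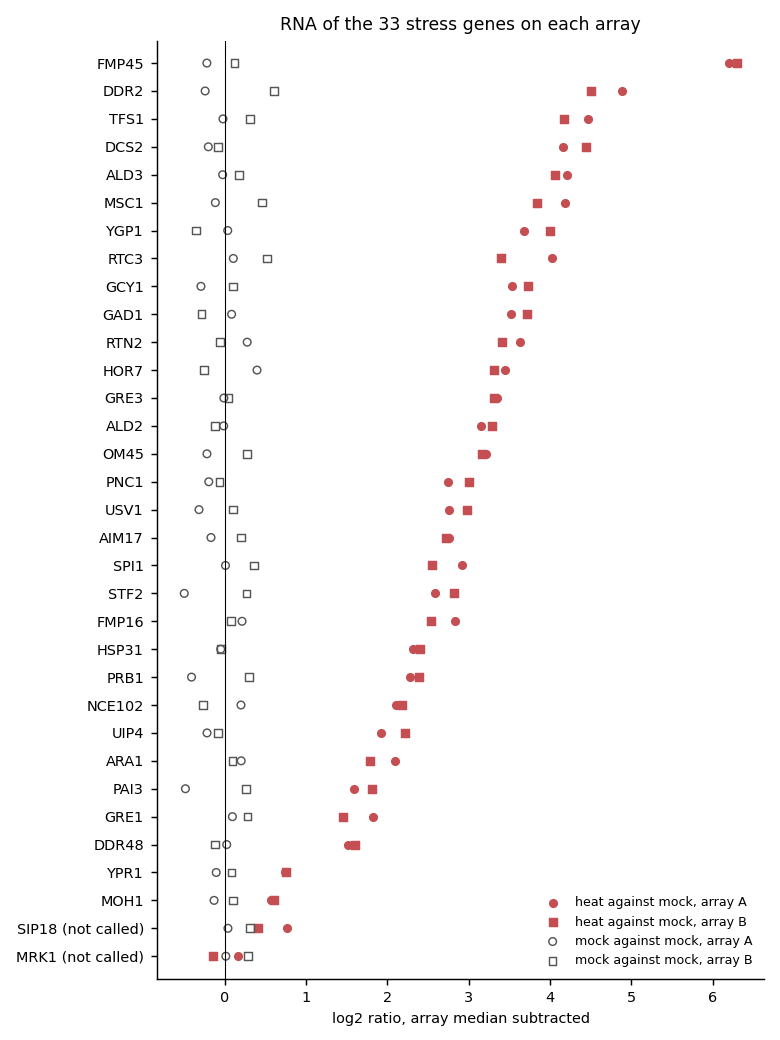
RNA log2 ratio (x axis, array median subtracted) of the 33 genes on each array, ordered by effect. Filled marks are the 2 arrays of heat shocked against mock treated RNA and open marks the 2 of mock against mock. The filled marks lie above both open marks for each gene except MRK1.

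At the promoter regions every called TBP, Mot1, TAF1 and Spt3 effect was an increase, and the called Bdf1 effects went both ways. For TBP, 19 of the 31 regions were called and each was higher, where 8.35% of the 6392 tested regions were called higher and 4.01% lower. The member median was 0.60 against -0.020 over all regions. For Mot1, 17 were called, each higher, with a median of 0.40 (8.57% higher and 4.18% lower over all regions, median 0.0031). For TAF1, 15 were called, each higher, with a median of 0.22 (12.2% higher and 8.67% lower over all, median -0.014). For Spt3, 4 were called (9 with array weights, 7 with arrays scaled to equal spread), each higher, and the median was 0.23 (3.88% higher and 1.77% lower over all, median 0.0056). For Bdf1, 4 were called higher and 3 lower, with a median of 0.057 (8.42% higher and 7.81% lower over all, median -0.013). The Bdf1 shares are thus 12.9% higher and 9.68% lower, near the background.

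These counts depend on single arrays. Without TAF1 array A the TAF1 count was 9, without Spt3 array B or E the Spt3 count was 2, and without Bdf1 array C the Bdf1 count was 4. TBP kept at least 16 calls and Mot1 at least 15 without any one of their arrays. Over all these left-out arrays, 16 of the 19 TBP calls, 14 of 17 for Mot1, 8 of 15 for TAF1, 2 of 4 for Spt3 and 4 of 7 for Bdf1 were kept each time. By array, the median over the 31 regions ran from 0.40 to 0.74 for TBP, from 0.21 to 0.34 for TAF1, from 0.077 to 0.41 for Spt3, from 0.18 to 0.55 for Mot1, from 0.051 to 0.16 for Bdf1 and from -0.17 to -0.0031 for Null.

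**Figure D2:**
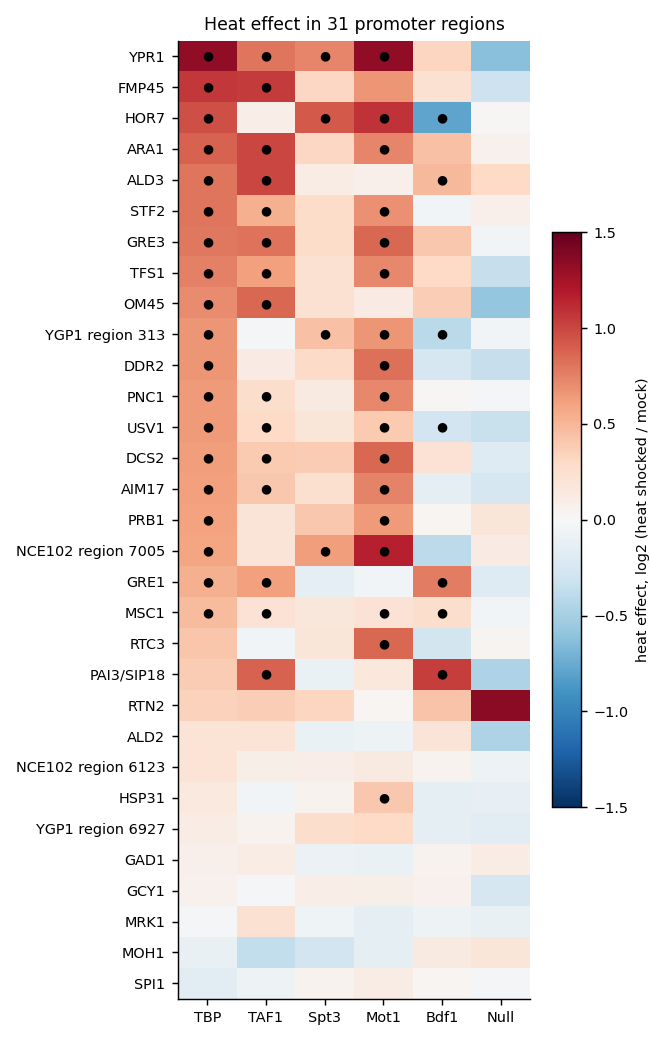
Heat effect (colour, log2 of heat shocked over mock treated, relative to the array median) in the 31 tested regions (rows) for the 5 factors and Null (columns), ordered by TBP. A dot marks an adjusted p under 0.05; TBP has 19 dots, TAF1 15, Spt3 4, Mot1 17, Bdf1 7 and Null 0. Directions are relative to the typical region: without median subtraction 15 of the 17 Mot1 values turn negative.

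In the Null strain, limma called 0 of the 31 regions, where 0.0313% of all regions were called in either direction. At an unadjusted p under 0.05, 10 of the 31 were different from 0, against 1270 of all 6392 regions. The member median was -0.074. Without Null array C the Null count was 5, and without array D it was 4. Subtracting the Null effect left 18 regions higher for TBP (4.87% of all regions), 15 for TAF1 (7.42%), 13 for Mot1 (5.02%), 2 for Spt3 (0.767%) and 5 for Bdf1 (4.74%), with 1 Bdf1 region lower (3.97%). These differences share the 4 Null arrays and are not independent of each other. Without TBP array A the TBP count was 11, without TAF1 array A the TAF1 count was 9, and without both Null arrays A and B, an alternative chosen after seeing the data, the counts were 7 for TBP and 7 for TAF1. The Spt3 count was 1 without Null array A or Spt3 array B, C or E, and the Bdf1 counts were 3 higher without Bdf1 array A or Null array B. The input arrays differed between HA-TAF1 and HA-Spt3 in 0 of the 31 regions by limma, and in 0 at an unadjusted p under 0.05. They hold no heat shocked DNA, so they cannot show whether heat changed the input.

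Heat effects were also compared between factors. Bdf1 lay below TBP in 9 of the 31 regions, where 1.02% of all regions were called lower. These were HOR7, the YGP1 region 313, YPR1, the NCE102 region 7005, USV1, DDR2, STF2, AIM17 and PNC1, with differences from -1.76 to -0.62, and 8 of the 9 calls were kept whichever array was left out. The exception was STF2, whose adjusted p rose to between 0.0533 and 0.0859 without any one of TBP arrays A, B and C or Bdf1 arrays A, B and D. Spt3 lay below TBP in 1 region, that of PNC1 (0.501% of all regions lower), with a difference of -0.50 ± 0.11 (SE). The count was 17 with array weights, 4 with arrays scaled to equal spread, 4 without both Null arrays A and B (chosen after seeing the data), and 0 with no centring or no channel effect. The PNC1 call was lost without TBP array A, B or D or Spt3 array C or D (adjusted p from 0.0536 to 0.0945). Spt3 lay below TAF1 in 3 regions (1.99%), those of PAI3/SIP18, ALD3 and GRE1, and without TAF1 array B only the first was left. TAF1 and TBP differed in 0 regions by limma (0.0156% of all in either direction), with 1 called lower without TAF1 array A. At an unadjusted p under 0.05 they differed in 11 of the 31, against 304 of all 6392 regions. Mot1 and TBP also differed in 0 (0.485%), and in 7 at an unadjusted p under 0.05 (945 of all 6392 regions).

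The aldehyde and carbonyl enzymes were ALD2 and ALD3 (cytosolic aldehyde dehydrogenases), GRE3 (an aldose reductase), ARA1 (an arabinose dehydrogenase), GCY1 and YPR1 (aldo-keto reductases) and HSP31 (a chaperone-like methylglyoxal-degrading enzyme). RNA rose for 7 of these 7, from 0.75 for YPR1 to 4.14 for ALD3. TBP was called higher in 4 of their 7 regions (8.35% over all regions), TAF1 in 4 (12.2%) and Mot1 in 4 (8.57%). Spt3 and Bdf1 were called higher in 1 each (3.88% and 8.42%), and nothing is read from single calls. ALD2 and ALD3 are neighbouring, closely related genes, and GCY1 and YPR1 are related to each other, so their RNA spots may share signal. How far they did was not tested.

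YPR1 (YDR368W) had the highest TBP and Mot1 effects of the group beside one of its smallest RNA effects. Its TBP values were 1.38, 1.40, 1.38 and 1.13 on arrays A to D, and its Mot1 values 0.98, 1.27, 1.60 and 1.47. Its Spt3 values were 0.73, 0.79, 0.71 and 0.68 on arrays B to E. All 12 lay above the 4 Null arrays, which ran from -1.44 to 0.0097, so none of these groups overlapped Null. The effects were 1.32 ± 0.14 for TBP (SE, adjusted p 8.13e-06), 1.33 ± 0.15 for Mot1 (adjusted p 1.95e-06) and 0.73 ± 0.14 for Spt3 (adjusted p 0.00415). TAF1 was higher by 0.80, and Bdf1 was at 0.32 with an adjusted p of 0.130. RNA rose by 0.75 ± 0.15, a ratio of 1.68.

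ALD3 (YMR169C) was called higher for TBP, TAF1 and Bdf1 without a called change in Spt3 or Mot1. Null also stood at 0.30 there (adjusted p 0.245), and minus Null only TAF1 was called (0.70, adjusted p 0.0257). TBP minus Null was 0.50 (adjusted p 0.131) and Bdf1 minus Null 0.19 (adjusted p 0.592). Its TAF1 values were 1.11, 1.29, 0.96 and 0.66 on arrays A to D, each above the Null arrays (0.027 to 0.59). Its Bdf1 values were 1.00, 0.23, 0.47 and 0.25, with array A far above the others and 3 of the 4 inside the Null range. The TAF1 effect was 1.00 ± 0.14 (adjusted p 5.17e-05). The Bdf1 effect of 0.49 ± 0.15 (adjusted p 0.0247) was lost without Bdf1 array A (0.32, adjusted p 0.186) or C (0.49, adjusted p 0.0994). Spt3 stood at 0.11 and Mot1 at 0.077. Spt3 minus TAF1 was -0.90 ± 0.20 (adjusted p 0.0140), a call lost without TAF1 array A (adjusted p 0.0521) or B (adjusted p 0.0683).

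ARA1 (YBR149W) had TAF1 values of 1.04, 1.29, 1.00 and 0.68, all above its Null arrays (-0.20 to 0.37). Its TAF1 effect was 1.00 ± 0.17 (adjusted p 0.000249) and its TBP effect 0.89 ± 0.17. Its Mot1 effect of 0.73 was lost as a call without Mot1 array C (0.60) or D (0.52). GRE3 (YHR104W) was called higher for TBP (0.79), TAF1 (0.82) and Mot1 (0.86), and its RNA rose by 3.33. The regions of ALD2 and GCY1 had no factor called, although RNA rose by 3.22 and 3.63. Minus Null, ALD2 was called higher for TBP (0.67, adjusted p 0.0259), TAF1 (0.67, adjusted p 0.0189) and Bdf1 (0.65, adjusted p 0.0278). Null array B stood at -1.29 there, against -0.21 to -0.17 on the other Null arrays. Leaving it out lost the TBP and Bdf1 calls (adjusted p 0.0632 and 0.0885). The TAF1 call was lost without TAF1 array B (adjusted p 0.0814). HSP31 was called for Mot1 alone (0.40 ± 0.08), with RNA up by 2.36.

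The 3 hydrophilins are small water-loving proteins that protect cells during drying and osmotic stress: SIP18, GRE1 and STF2. Their RNA effects were modest beside the group median, at 0.59 for SIP18, 1.64 for GRE1 and 2.71 for STF2. SIP18 (YMR175W) read 0.76 and 0.41 on the heat arrays and 0.040 and 0.31 on the mock arrays. The groups did not overlap but were close, and the effect of 0.59 ± 0.18 (adjusted p 0.0572) was not called. It passed without mock array B (adjusted p 0.041). SIP18 and GRE1 are related genes whose spots may share signal.

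The region between SIP18 and PAI3, which borders the 5' ends of both, had the highest Bdf1 effect of the group. Its Bdf1 values were 1.07, 0.86, 1.10 and 1.12 on arrays A to D, against -0.90 to -0.15 on the Null arrays, with no overlap. The effect was 1.04 ± 0.14 (adjusted p 4.90e-05). TAF1 was also higher, by 0.88 ± 0.14 (adjusted p 0.000108). TBP stood at 0.38 (adjusted p 0.0708), Mot1 at 0.15 and Spt3 at -0.094, none of them called. Spt3 lay below TAF1, with a difference of -0.98 ± 0.19 (adjusted p 0.00634).

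GRE1 (YPL223C) shared this pattern. Its Bdf1 values were 0.72, 0.58, 0.91 and 0.86, all above the Null arrays (-0.68 to 0.098), giving 0.77 ± 0.13 (adjusted p 0.000318). Its Spt3 values were -0.25, -0.036, -0.29 and -0.040 on arrays B to E, inside the Null range. The Spt3 effect of -0.15 was among the lowest of the group and not called. Spt3 minus TAF1 was -0.77 ± 0.18 (adjusted p 0.0157), lost without TAF1 array A (adjusted p 0.0802) or B (adjusted p 0.0821). TAF1 was higher by 0.62 and TBP by 0.53, the TBP call being lost without TBP array A (0.49, adjusted p 0.0509). The region also borders the 5' end of FMP40, whose RNA rose by 2.35, so the occupancy cannot be assigned to 1 of the 2 genes. STF2 (YGR008C) differed: TBP (0.80), TAF1 (0.54) and Mot1 (0.69) were called higher and Bdf1 stood at -0.040. Its TAF1 call was lost without TAF1 array B (0.38, adjusted p 0.0831).

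**Figure D3:**
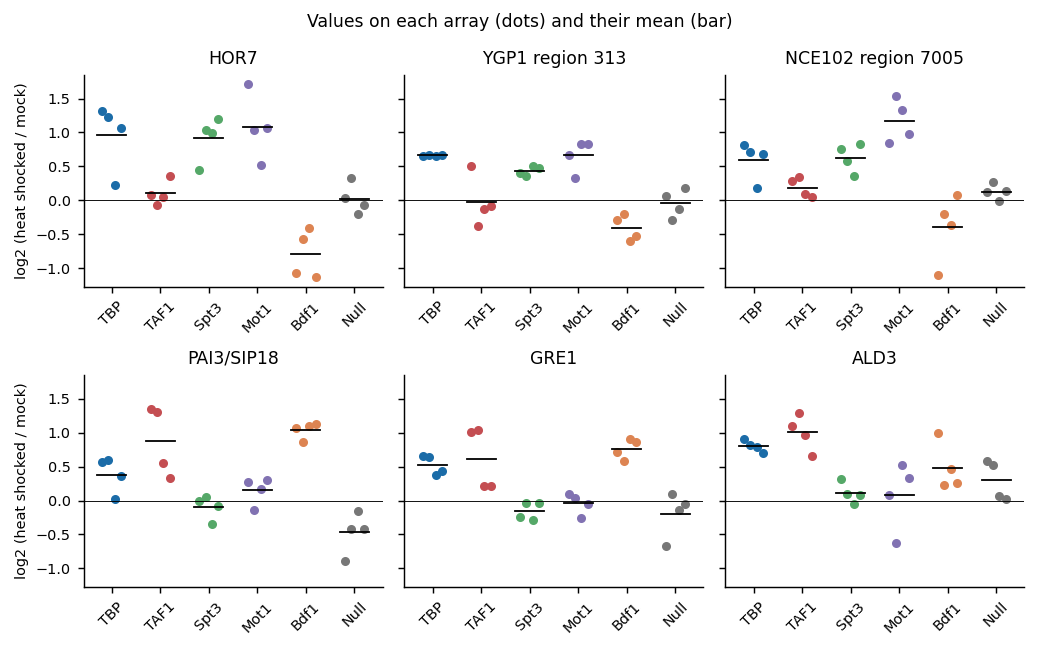
Log2 of heat shocked over mock treated (y axis, relative to the array median) on each array (dots) with the mean (bar) for the 5 factors and Null in 6 regions. In the upper row (HOR7, YGP1, NCE102) the Bdf1 dots are low and the Mot1 dots high; in the lower row (PAI3/SIP18, GRE1, ALD3) the TAF1 and Bdf1 dots are high and the Spt3 dots lie near 0. The regions were picked by their Bdf1 effect, so the height of the Bdf1 dots in each row follows from the choice. Without median subtraction the Mot1 effects of HOR7 and YGP1 turn below 0.

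The vacuolar group comprises PRB1 (vacuolar proteinase B), TFS1 (an inhibitor of carboxypeptidase Y) and PAI3 (an inhibitor of proteinase A). RNA rose for all 3, by 2.33, 4.32 and 1.70. TFS1 (YLR178C) read 4.47 and 4.18 on the heat arrays and -0.021 and 0.31 on the mock arrays, which do not overlap, giving 4.32 ± 0.18 (adjusted p 0.000205). Its region was called higher for TBP (0.76), TAF1 (0.62) and Mot1 (0.72). PRB1 was called higher for TBP (0.60) and Mot1 (0.64), with TAF1 at 0.19 and Bdf1 at 0.030. Null stood at 0.18 in its region (adjusted p 0.463). Minus Null, neither TBP (0.42, adjusted p 0.161) nor Mot1 (0.46, adjusted p 0.127) was called.

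The membrane and cell surface genes were HOR7 (a small plasma membrane protein), NCE102 (an eisosome protein), FMP45 (a Sur7 family membrane protein), YGP1 (a secreted cell wall glycoprotein), SPI1 (a GPI-anchored wall protein), RTN2 (a reticulon) and UIP4 (a nuclear envelope protein). RNA rose for 7 of 7, with a median of 3.38. Of their 8 tested regions TBP was called higher in 4 (8.35% over all regions), Spt3 in 3 (3.88%) and Mot1 in 3 (8.57%), and Bdf1 was called lower in 2 (7.81%). TAF1 was called higher in 1, a share near its background of 12.2%.

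FMP45 (YDL222C) had the highest RNA effect of the group. It read 6.20 and 6.30 on the heat arrays and -0.22 and 0.12 on the mock arrays, without overlap. The effect was 6.25 ± 0.16 (adjusted p 0.000170), a ratio of 76.0 and the 5th highest of all tested spots. At its region the TBP values were 1.41, 1.23, 0.56 and 1.05, above the Null arrays (-1.23 to 0.28). The TAF1 values were 2.26, 0.92, 0.56 and 0.45, also above Null but with array A far from the rest. TBP was higher by 1.06 ± 0.24 (adjusted p 0.00402) and TAF1 by 1.05 ± 0.24 (adjusted p 0.00298). The TAF1 call was lost without array A (0.62, adjusted p 0.0693). Mot1 at 0.67 was not called (adjusted p 0.0693), and Spt3 stood at 0.31.

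HOR7 (YMR251W-A) combined gains of TBP, Spt3 and Mot1 with a loss of Bdf1. Its TBP values were 1.32, 1.23, 0.23 and 1.07 on arrays A to D, with array C inside the Null range of -0.20 to 0.33 and the other 3 above it. Its Spt3 values were 0.44, 1.04, 1.00 and 1.20 on arrays B to E and its Mot1 values 1.71, 1.04, 0.51 and 1.06, and neither set overlapped Null. Its Bdf1 values were -1.07, -0.57, -0.41 and -1.13, all below Null. The effects were 0.96 ± 0.17 for TBP (adjusted p 0.000732), 0.92 ± 0.17 for Spt3 (adjusted p 0.00290), 1.08 ± 0.18 for Mot1 (adjusted p 0.000224) and -0.80 ± 0.18 for Bdf1 (adjusted p 0.00369). TAF1 stood at 0.10 ± 0.17. Minus Null, TBP (0.94, adjusted p 0.0203), Mot1 (1.06, adjusted p 0.0108) and Bdf1 (-0.82, adjusted p 0.0419) were called. Spt3 minus Null was not (0.90, adjusted p 0.0639). The Bdf1 minus Null call was lost without Bdf1 array A or D or Null array A, B or D (adjusted p from 0.0544 to 0.122). That of TBP was lost without TBP array A, B or D (adjusted p from 0.0595 to 0.0881). Bdf1 minus TBP was -1.76 ± 0.25 (adjusted p 0.000312), the lowest difference of the 31 regions.

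The NCE102 (YPR149W) promoter carries 2 regions. In region 7005 the Spt3 values were 0.75, 0.58, 0.35 and 0.83 on arrays B to E and the Mot1 values 0.84, 1.54, 1.33 and 0.98 on arrays A to D, and each lay above Null (-0.016 to 0.27). Mot1 was higher by 1.17 ± 0.14 (adjusted p 6.08e-06) and Spt3 by 0.63 ± 0.14 (adjusted p 0.00943). The Spt3 call was lost without Spt3 array B (adjusted p 0.0620) or E (adjusted p 0.0619), and the TBP call (0.59) without TBP array A (0.52, adjusted p 0.0559). Bdf1 stood at -0.40 (adjusted p 0.0537). Minus Null, Mot1 was called (1.04, adjusted p 0.00231), but Spt3 (0.50, adjusted p 0.163) and TBP (0.47, adjusted p 0.148) were not. In region 6123 no factor was called, and the 5 effects ran from 0.057 to 0.20. Both regions also border the 5' end of YPR148C, whose RNA effect of 0.51 was not called.

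YGP1 (YNL160W) also carries 2 regions. In region 313 the Bdf1 values were -0.29, -0.20, -0.60 and -0.53, overlapping the Null arrays (-0.28 to 0.19) on array B. The Bdf1 effect was -0.41 ± 0.11 (adjusted p 0.0112), a call lost without Bdf1 array C (-0.32, adjusted p 0.129) or D (-0.36, adjusted p 0.0609). TBP (0.67), Mot1 (0.67) and Spt3 (0.44) were called higher and TAF1 stood at -0.022. The Spt3 call was lost without any one of its 4 arrays (adjusted p from 0.0518 to 0.0679). In region 6927 no factor was called, and RNA of YGP1 rose by 3.84.

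SPI1 (YER150W) lay at the other end. Its TBP values were -0.22, -0.12, -0.19 and -0.11 and its TAF1 values -0.031, -0.028, -0.22 and -0.046, all inside the Null range of -0.33 to 0.34. TBP stood at -0.16 ± 0.08 (adjusted p 0.241) and TAF1 at -0.081, while RNA rose by 2.73. The region is shared with PEA2, whose RNA effect of -0.24 was not called. RTN2 had no factor called, with an RNA effect of 3.52. One Null array gave 5.06 in its region while the other 3 ran from -0.15 to 0.26, so each factor minus Null value there rests on that array. All arrays share 1 estimate of the spread, so that array also widened the SE of each RTN2 factor effect, to 0.47 or 0.48. The factor effects ran from 0.027 to 0.43, and the lack of a call does not show a lack of change. RNA of UIP4, which has no region, rose by 2.07.

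The mitochondrial proteins were OM45 (an outer membrane protein), AIM17 and FMP16, and RNA rose by 3.19, 2.74 and 2.69. AIM17 was called higher for TBP (0.61), TAF1 (0.41) and Mot1 (0.74). OM45 was called for TBP (0.70) and TAF1 (0.86) with Mot1 at 0.12. The OM45 TBP call was lost without any one TBP array (adjusted p from 0.0532 to 0.179), and its TAF1 call without TAF1 array A (0.69, adjusted p 0.0693). The FMP16 region gave a value on only 2 of the 4 Null arrays and was not tested. Its 4 Bdf1 values lay close together, from 0.89 to 1.27, while its TBP values ran from -2.83 to 1.25. The 2 Null values were 2.36 and -2.76, on either side of the Bdf1 values, so no Bdf1 change is read from them.

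The other metabolic and signalling genes were DCS2 (an inhibitor of the decapping scavenger Dcs1), PNC1 (nicotinamidase), GAD1 (glutamate decarboxylase), USV1 (a zinc finger transcription factor) and MRK1 (a GSK-3 family kinase). DCS2 (YOR173W) read 4.15 and 4.44 on the heat arrays and -0.20 and -0.084 on the mock arrays, which do not overlap, giving 4.30 ± 0.17 (adjusted p 0.000205). Its TBP (0.62), TAF1 (0.39) and Mot1 (0.86) effects were called, and TAF1 was lost without TAF1 array A (0.29, adjusted p 0.223), B (adjusted p 0.122) or C (adjusted p 0.0515). PNC1 was called for TBP (0.64), Mot1 (0.72) and TAF1 (0.26), the last lost without TAF1 array A (adjusted p 0.103) or C (adjusted p 0.0883). Its region is shared with VIR1, whose RNA rose by 0.86.

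USV1 was called higher for TBP (0.63), Mot1 (0.39) and TAF1 (0.30) and lower for Bdf1 (-0.29). Null stood at -0.34 in the same region (adjusted p 0.0884). Bdf1 minus Null was 0.051 (adjusted p 0.840), so the lower Bdf1 is not set apart from Null. The Bdf1 call was lost without any one Bdf1 array (adjusted p from 0.0988 to 0.114), the TAF1 call without TAF1 array A (0.18) or B (0.29), and the Mot1 call without Mot1 array B (0.32). GAD1 rose by 3.62 in RNA, while its region, shared with a tRNA gene, had no factor called. MRK1 (YDL079C) was the gene with no RNA change. It read 0.16 and -0.14 on the heat arrays and 0.014 and 0.28 on the mock arrays, which overlap, giving 0.011 ± 0.18 (adjusted p 0.966). Its Mot1 values were 0.17, -0.084, -0.39 and -0.30, also overlapping Null (-0.37 to 0.010), and the Mot1 effect of -0.15 was the lowest of the group.

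The last 5 genes have little known function: DDR2 and DDR48 (named for their response to DNA damage), MSC1, RTC3 and MOH1. DDR2 (YOL052C-A) read 4.88 and 4.51 on the heat arrays and -0.24 and 0.61 on the mock arrays, without overlap, giving 4.70 ± 0.25 (adjusted p 0.000324). Its TBP (0.66) and Mot1 (0.83) effects were called, while TAF1 stood at 0.12 and Bdf1 at -0.25. RTC3 rose by 3.72 in RNA and was called for Mot1 alone (0.86), with TBP at 0.41 (adjusted p 0.0516). MSC1 was called higher for TBP (0.48), TAF1 (0.22), Mot1 (0.22) and Bdf1 (0.26), and its Mot1 call was lost without Mot1 array C or D (adjusted p 0.0761 and 0.0875) and its TAF1 call without TAF1 array A (adjusted p 0.0889). RNA of DDR48 rose by 1.56.

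MOH1 (YBL049W) was among the lowest of the group by RNA and by 4 factors. It read 0.57 and 0.60 on the heat arrays and -0.13 and 0.10 on the mock arrays, without overlap, giving 0.59 ± 0.15 (adjusted p 0.0300). Its TBP values were 0.066, 0.10, -0.48 and -0.15 and its TAF1 values -0.73, -0.37, -0.16 and -0.21. Its Spt3 values were -0.77, -0.068, -0.18 and -0.12 on arrays B to E and its Mot1 values -0.0085, -0.33, -0.073 and -0.14 on arrays A to D. Each of these groups overlapped its Null arrays (-0.34 to 0.65). None was called, TAF1 at -0.37 ± 0.14 having an adjusted p of 0.0618.

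A pair of patterns appeared in a few regions, picked after the values were seen and described without a test beyond the differences above. HOR7, YGP1 region 313 and NCE102 region 7005 were called higher for TBP, Spt3 and Mot1. Their TAF1 lay between -0.022 and 0.19 and their Bdf1 between -0.80 and -0.40. YPR1 had the same TBP, Spt3 and Mot1 calls, but its TAF1 was called higher (0.80) and its Bdf1 stood at 0.32. PAI3/SIP18, ALD3 and GRE1 were called higher for TAF1 and Bdf1 and had Mot1 between -0.043 and 0.15. MSC1 was also called higher for TAF1 and Bdf1, but its Mot1 was called higher too (0.22). Across the 31 regions the heat effects of Spt3 and Mot1 had a Pearson r of 0.82 and a Spearman rho of 0.75, against 0.40 and 0.43 over all 6392 regions. TAF1 and Bdf1 had 0.63 and 0.66, against 0.50 and 0.62. TBP and Bdf1 had 0.048 and 0.15, against 0.39 and 0.52, and Mot1 and Bdf1 had -0.38 and -0.30, against 0.11 and 0.12. The effects come from separate arrays but share 1 fitted channel effect per region and the same spots, and regions are not replicates.

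**Figure D4:**
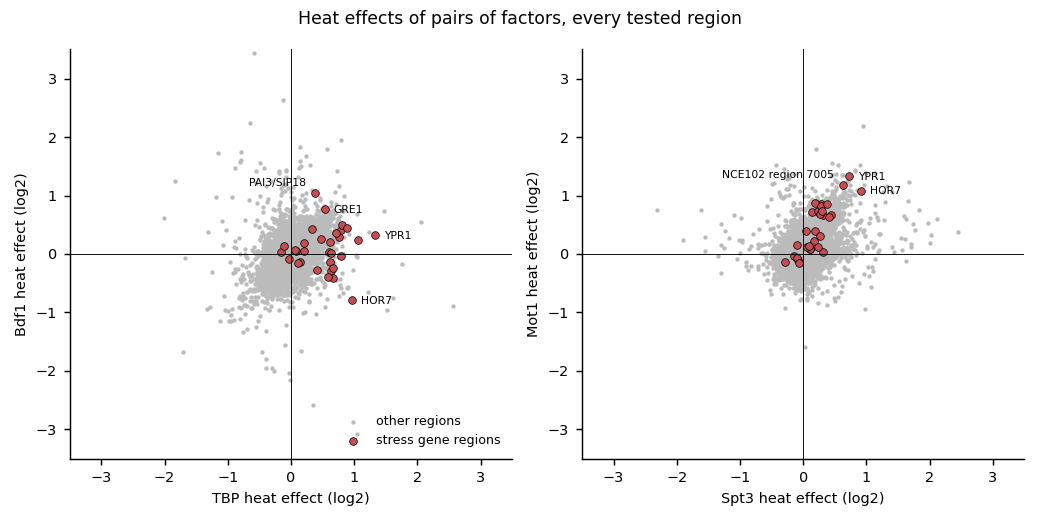
Heat effects (log2, relative to the array median) of Bdf1 against TBP (left) and of Mot1 against Spt3 (right) for all 6392 tested regions (grey), with the 31 stress gene regions in red. On the left the red points spread from PAI3/SIP18 above to HOR7 below; on the right they lie along a rising band. Without median subtraction the Mot1 axis shifts down by 1.16.

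TBP calls overlapped most with Mot1 calls: 15 regions had both, which is 15 of the 19 TBP calls and 15 of the 17 Mot1 calls. How often such calls coincide over all regions is not given, so nothing particular to the members is read from the overlaps in this paragraph. TBP and TAF1 shared 14 (of 19 and of 15). All 4 Spt3 calls lay among the TBP and Mot1 calls, and 1 of them, YPR1, was also called for TAF1. All 4 regions with higher Bdf1 were called higher for TAF1, and 1 of them, MSC1, for Mot1. All 3 regions with lower Bdf1 were called higher for TBP and Mot1, but only HOR7 of them was also called lower for Bdf1 minus Null. That HOR7 call was lost without Bdf1 array A or D or Null array A, B or D.

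In 9 of the 31 regions no factor was called: ALD2, GAD1, GCY1, MOH1, MRK1, NCE102 region 6123, RTN2, SPI1 and YGP1 region 6927. Only MRK1 of these genes lacked an RNA call. ALD2 was called higher minus Null for TBP, TAF1 and Bdf1, with Null array B far below the other Null arrays. At RTN2 the outlying Null array widened the SE of every factor effect, so its place in this list says little. Across 32 pairs of gene and region the RNA effect and the TBP effect had a Pearson r of 0.26 and a Spearman rho of 0.27, and for Mot1 0.20 and 0.21. Of the 20 regions that border 1 promoter, TBP was called higher in 14, Mot1 in 14 and TAF1 in 10. Of the 11 that border 2 promoters the counts were 5, 3 and 5. The shares of all regions without a call, or called by number of promoters, are not given. Nothing particular to the members is therefore read from these counts. The partner gene fell in RNA at GCY1 (RIO1, an effect of -0.79) and rose at GRE1 (FMP40) and PNC1 (VIR1).

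**Figure D5:**
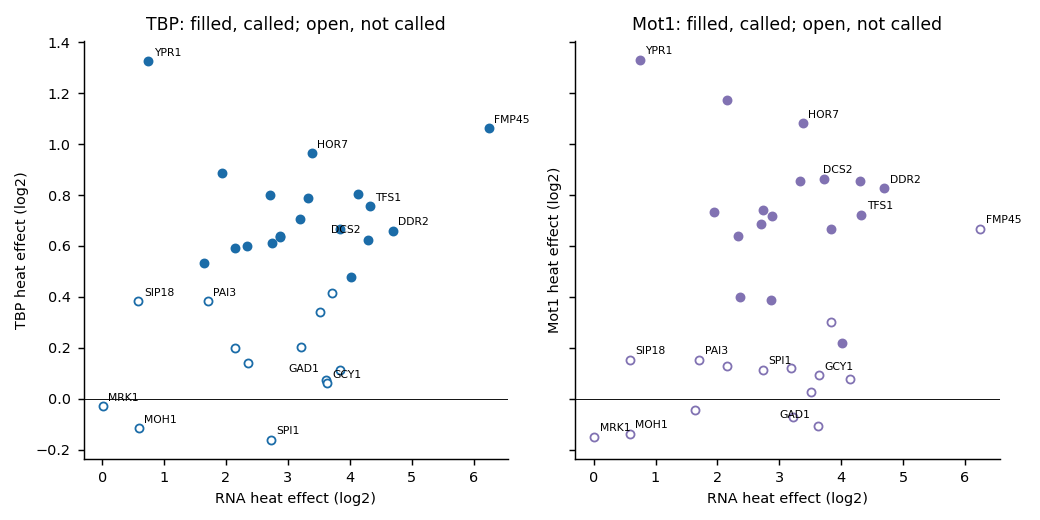
RNA heat effect (x axis, log2) against TBP (left) and Mot1 (right) heat effect (y axis, log2, relative to the array median) for the 32 pairs of gene and region. Filled points passed an adjusted p under 0.05. YPR1 has the highest TBP value (1.32) at an RNA effect of 0.75, while GAD1, GCY1 and SPI1 have RNA effects from 2.73 to 3.63 and TBP between -0.16 and 0.075. Without median subtraction most Mot1 values are below 0.

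Other genes of the response were set beside these. Of 36 further Msn2/Msn4-type genes, among them CTT1 (catalase), HSP12 (a membrane-binding stress protein) and the trehalose and glycogen enzymes, 34 had a tested spot and 34 of these rose, with a median of 2.91. Of their 36 tested regions, 16 were called higher for TBP (8.35% of all regions), 21 for Mot1 (8.57%), 9 for TAF1 (12.2%), 6 for Spt3 (3.88%) and 3 for Bdf1 (8.42%). In the other direction 9 were called lower for Bdf1 (7.81%), and 1 each for TAF1 (8.67%), Spt3 (1.77%) and Mot1 (4.18%). The Bdf1 count of higher regions is near its background. Bdf1 lay below TBP in 9 of the 36 (1.02% of all regions), including those of GSY2 (-1.33, glycogen synthase), HSP104 (-1.26, a disaggregase) and HSP78 (-1.16, its mitochondrial counterpart). HSP104 and HSP78 are chaperone genes, and the list holds others. The direction of the ratios was read so that chaperone RNA and TBP at chaperone promoters rise. For those genes a rise in RNA or TBP therefore follows from that reading. Of 26 regulators of the response, 25 had a tested spot, of which 13 rose and 2 fell, with a median of 0.53. MSN4 rose by 1.36 and MSN2 stood at 0.26 (adjusted p 0.271). Of the 23 tested regulator regions, 7 were called higher for TBP (8.35% of all regions), 6 for TAF1 (12.2%), 6 for Bdf1 (8.42%), 4 for Spt3 (3.88%) and 4 for Mot1 (8.57%).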

How the data were processed

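The authors deposited 1 log2 ratio per spot and array for 28 ChIP arrays and 4 RNA arrays. Per the labels, a GenePix 4000A scanned the slides and GenePix Pro 4.0 extracted the signals. How the authors corrected background or normalized is not given in the sources. The ratio's direction is not stated: ChIP ratios were read as channel 1 over channel 2 and RNA ratios as channel 2 over channel 1, then given a common sign (heat over mock), less each array's median. Had the deposited ChIP ratios already been turned, calls over all regions would number 3 (TBP), 57 (TAF1), 11 (Spt3), 2 (Mot1), 3 (Bdf1) and 37 (Null), against 790, 1336, 361, 815, 1037 and 2 here. The 2 RNA heat arrays, whose channels were swapped, correlated at -0.682 as deposited.

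A limma model (3.58.1, R 4.3.3) gave 1 heat effect per group and 1 channel effect per region or spot, with 2-sided moderated tests and Benjamini-Hochberg adjustment. Regions needed a value on at least 3 arrays of each group (6392 of 7047) and spots on at least 3 of 4 arrays (6920 of 7056). The fit was tested on simulated data. The number of arrays limits the precision. Array values printed have the channel effect removed, except those of the FMP16 region, which was not in the fit.

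A region was taken to lie to the right of the gene it is named for, since TBP then ran with the RNA of the gene whose 5' end it borders (rho 0.456 on the forward and 0.420 on the reverse strand, against -0.018 and -0.0072 for the gene at its other end). Neighbours came from the RefSeq gene table, and genes named by neither array annotation were skipped. Array values are given for the 4 highest and 3 lowest genes by RNA and, for each factor, the 3 highest and 2 lowest regions. The members, the lists and the placement were chosen with earlier results of these data known. The fit did not pair arrays by letter, and the labels do not say whether arrays with the same letter share a culture or day. Deviations of arrays with the same letter correlated with those of Null at -0.251 to 0.247. Arrays with different letters were not compared, so this cannot show whether the letters pair the samples.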

Additional observations from a re-analysis of the deposited data

Results flagged for a closer look

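A single array stood apart from the other 3 of its group in 14 of 186 sets of 4 arrays, by Dixon's criterion. Chance gives about 1 in 20 sets. On Null arrays these were RTN2 (5.06 on array A), ALD2 (-1.29 on array B) and GRE3 (-0.20 on array A). On Mot1 arrays they were DCS2 (0.21 on array A), TFS1 (0.18 on array A) and USV1 (0.61 on array B). On Spt3 array B they were FMP45 (0.66), GCY1 (-0.32) and MOH1 (-0.77). On TBP arrays they were PNC1 (0.40 on array C), MRK1 (-0.47 on array C) and YPR1 (1.13 on array D). On TAF1 arrays they were SPI1 (-0.22 on array C) and RTN2 (0.71 on array B).

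Heat effects differed between factors in 13 comparisons, by a test of the difference. Bdf1 minus TBP was -1.76 at HOR7, -1.07 at YGP1 region 313, -1.0 at YPR1, -0.99 at NCE102 region 7005 and -0.92 at USV1. It was -0.91 at DDR2, -0.84 at STF2, -0.75 at AIM17 and -0.62 at PNC1. Spt3 minus TAF1 was -0.98 at PAI3/SIP18, -0.90 at ALD3 and -0.77 at GRE1, and Spt3 minus TBP was -0.50 at PNC1. The adjusted p ran from 0.000307 to 0.0221.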

How the results depend on the processing

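Counts below are of the 31 regions unless stated. With no centring the counts were 0 for TBP, TAF1, Spt3 and Bdf1, 16 for Mot1 (each lower), 29 for Null (lower), and, minus Null, 28 for TBP, 4 for TAF1, 1 for Spt3 and 0 for Mot1 and Bdf1. Mot1 minus TBP then gave 29 (lower), and Spt3 or Bdf1 minus TBP and Spt3 minus TAF1 gave 0. Of the single values, 16 changed sign before the shift of all regions was taken off and 0 after it. Array weights gave 9 for Spt3, 6 for Spt3 minus Null, 3 each for TAF1 and Mot1 minus TBP, 17 for Spt3 minus TBP and 8 for Spt3 minus TAF1. Scaling arrays to equal spread gave 7 for Spt3, 2 for Null, 4 for Spt3 minus Null, 4 for Spt3 minus TBP and 24 RNA calls. No channel effect gave 0 for Spt3 minus TBP. The array letter as a replicate block gave 1 for Spt3 minus Null and 2 for Spt3 minus TBP, and 18 for TBP and 12 for Mot1. Without both Null arrays A and B, chosen after seeing the data, the counts were 7 for Spt3, 7 and 7 for TBP and TAF1 minus Null, 1 and 2 for Spt3 and Bdf1 minus Null, and 4 for Spt3 minus TBP. The 20 regions that border 1 promoter gave 4 for Bdf1, 3 for Bdf1 minus Null, 0 for Spt3 minus TBP and 1 for Spt3 minus TAF1. The 28 regions named for the member itself gave 0 for Spt3, 11 for Mot1, 5 for Bdf1 minus TBP and, minus Null, 10 for TBP, 1 for Spt3 and 5 for Mot1.

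Leaving out 1 array gave 28 to 32 RNA calls, 16 to 19 for TBP, 9 to 15 for TAF1, 2 to 3 for Spt3, 15 to 19 for Mot1, 4 to 6 for Bdf1 and 0 to 5 for Null. Minus Null it gave 11 to 18 for TBP, 9 to 15 for TAF1, 1 to 3 for Spt3, 12 to 17 for Mot1 and 3 to 8 for Bdf1. It gave 8 to 9 for Bdf1 minus TBP, 0 to 1 for TAF1 and Spt3 minus TBP, and 1 to 4 for Spt3 minus TAF1. The cause of these shifts was not tested. Over all alternatives run, 1643 of 1951 single values kept their direction and call, 306 lost the call and 2 gained it. For no centring, direction was judged here after the shift of all regions was taken off. The sign changes before that step, most of them Mot1 values, are therefore not counted as changes of direction. Spot intensities are not in the tables used, so signal over background is unknown.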
